A study of Mus musculus with 8 samples.

Results

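Mitochondria keep their own small genome, and the proteins that copy, package and read it are encoded in the nucleus. Described here are 9 of these nuclear genes, chosen by name: Polg, Polg2, Ssbp1, Tfam, Polrmt, Tfb1m, Tfb2m, Lrpprc and Mtpap, out of 23432 gene rows in each count table. All 9 were counted in every library and passed the filter on low counts in both experiments. Polyadenylated RNA of mouse skin epithelium was sequenced from 8 libraries, 2 in each of 4 groups. At E16.5, epithelial cells carrying H2BGFP, a green fluorescent histone driven by the Krt14 promoter, were sorted from back skin of control embryos and of MOF cKO embryos, which had the genotype MOF fl/fl with K14Cre. At P0.5, total epidermal cells were taken, without sorting, from control pups and from Kansl1 cKO pups, with the genotype Kansl1 fl/fl and K14Cre. The K14Cre driver acts in cells that use the Krt14 promoter and their descendants, so cells of other lineages in a sample kept the gene, and the floxed Kansl1 allele loses exon 3 only. The controls are labelled as control without a genotype. All mice were of a mixed C57Bl/6J and CD-1 background.

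MOF, the product of Kat8, is a histone acetyltransferase that works in the MSL and NSL complexes, and KANSL1 is a subunit of the NSL complex. In mitochondria, the polymerase made of the Polg and Polg2 products copies the DNA, and SSBP1 coats the exposed strand. TFAM packages the DNA into nucleoids and opens promoters together with TFB2M, so that the RNA polymerase POLRMT can start transcription. TFB1M methylates the RNA of the small ribosomal subunit, LRPPRC stabilises mitochondrial messenger RNAs, and MTPAP adds their poly(A) tails. Skin epithelium renews itself from dividing basal cells, in which this machinery has to keep pace with growth. The count tables held 0 rows with the prefix mt-, which marks genes of the mitochondrial genome itself, so its transcripts were not analysed here.

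Counts assigned to genes ranged from 9108709 to 27561688 per library, and every E16.5 library was deeper than every P0.5 library. A count of 1 was worth between 0.0326 and 0.115 CPM. CPM here means counts scaled to a common library size, corrected with edgeR's TMM factors. Counts of the whole targeted gene are a weak check of the labels, because transcripts that lack the deleted exons still count. Kat8 was at 14.4 and 14.7 CPM in control and 12.4 and 13.9 CPM in MOF cKO, and Kansl1 was at 40.7 and 48.2 CPM in control and 31.4 and 30.6 CPM in Kansl1 cKO. Both targeted genes were lower in both cKO libraries than in both controls, and neither change passed the test (adjusted p of 0.554 and 0.242). Xist, the RNA that marks an inactive X chromosome, was at 1517 CPM in E16.5 control replicate 1 and at most 11.99 CPM in the other E16.5 libraries, and it was at 1.23 CPM in P0.5 control replicate 2 and at least 370.7 CPM in the other P0.5 libraries, so sex differed within both control groups. Keratinocyte markers were present in every library. At E16.5 their 15 genes summed to 43753 and 46815 CPM in control and to 48708 and 56150 CPM in MOF cKO, where 5 of the 15 were called higher and 1 lower. Krt1 and Krt10, keratins of the differentiating layers that are named here after their values were seen, were at 1548 and 1254 CPM and at 2252 and 1812 CPM in control, against 4225 and 4688 CPM and 4175 and 4658 CPM in MOF cKO. Krt5, a keratin of the basal layer, was at 19640 and 19434 CPM in control and at 16374 and 21601 CPM in MOF cKO. Krt14, another basal keratin, was at 10034.5 and 9687 CPM against 10433 and 12260 CPM. Over the list, 10 of the 15 genes were higher and 5 lower. The 16 proliferation markers summed to 3225 and 3554 CPM in control and to 2818 and 2921 CPM in MOF cKO, with 1 called lower. Summed levels of 15 macrophage markers were 22.4 and 47.7 CPM in E16.5 control and 131.8 and 163.8 CPM in MOF cKO, where 10 of the 15 were called higher. Skeletal muscle markers were low at E16.5, with sums of 2.22 and 2.56 CPM in control and 6.52 and 22.01 CPM in MOF cKO. At P0.5, the 8 skeletal muscle markers summed to 285.0 CPM in control replicate 1 and to 5.04 CPM in control replicate 2, against 3.32 to 4.31 CPM in Kansl1 cKO. The sums of 4 further lists did not overlap between the P0.5 groups. Melanocyte markers summed to 473 to 531 CPM in control and 1027 to 1143 CPM in Kansl1 cKO, and macrophage markers to 278 to 314 CPM against 400 to 437 CPM. Fibroblast markers summed to 1187 to 1858 CPM in control and 844 to 1057 CPM in Kansl1 cKO, and endothelial markers to 6.91 to 10.5 CPM against 4.82 to 6.44 CPM. P0.5 keratinocyte sums overlapped between the groups, with 65758 to 98881 CPM over both. The part of sex and of these other cells in the results was not tested, and in bulk libraries fewer cells of a type and less RNA per cell cannot be told apart.

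The E16.5 libraries were compared to learn whether the 9 genes changed in skin epithelium that lacked MOF. Polrmt fell in MOF cKO, Tfb1m was lower by more but missed the threshold, and the other 7 genes did not pass the test. Calls needed a fold over 1.5 together with an adjusted p no higher than 0.01 from edgeR's quasi-likelihood test, adjusted over all 13956 tested genes. So 1 of 9 members was called lower and 0 were called higher, where 9.59% of all tested genes were called lower and 10% higher. Without adjustment, 3 members had a p under 0.05 (Polg, Polrmt and Tfb1m), where 48.9% of all genes had one. DESeq2 also called Polrmt alone among the members, where it called 1725 of the 13956 tested genes lower and 1816 higher. The median log2 fold change (log2FC) was 0.06 over the members and -0.02 over all tested genes.

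**Figure D1:**
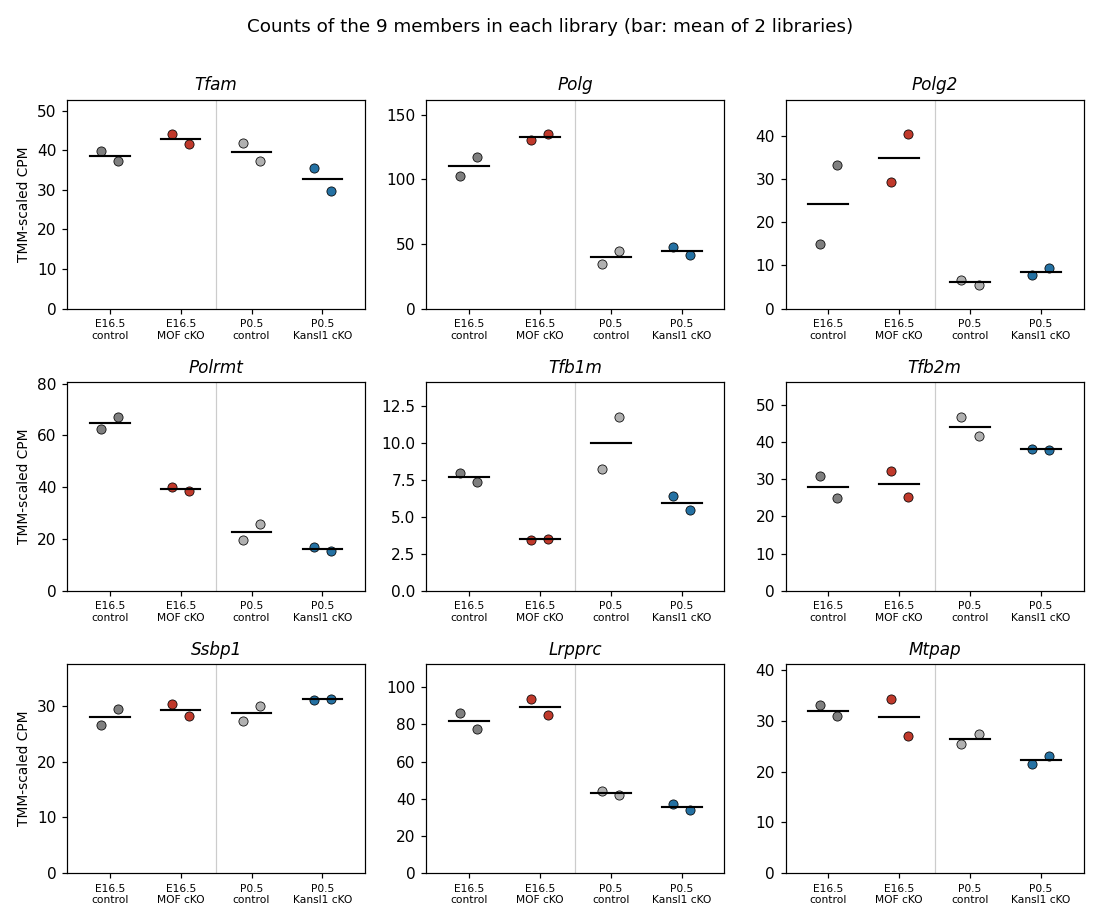
TMM-scaled CPM of the 9 members in each library, scaled within each experiment (y axis, from 0), for the 4 groups (x axis); points are libraries and bars the means of 2 libraries. Polrmt and Tfb1m lie lower in both MOF cKO libraries than in both E16.5 controls, as did 37.7% of all tested genes. Tfam and Polg lie higher in both, as did 34.9%, and Polg2, Tfb2m, Ssbp1, Lrpprc and Mtpap overlap there.

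Polrmt, the RNA polymerase of mitochondria, lies on the minus strand of chromosome 10 (mm10, 79736123 to 79746581) and shares no exon with another annotated gene. It was at 62.5 and 67.3 CPM in the control libraries and at 40.3 and 38.4 CPM in MOF cKO. The groups did not overlap, and the gap between them was several times the spread within either. The mean went from 64.9 ± 3.35 to 39.3 ± 1.34 CPM (SD, n = 2), a log2FC of -0.72 (standard error, SE, 0.117, 95% interval -0.997 to -0.449, adjusted p = 0.00335), or 1.65-fold lower. Among the E16.5 libraries with low Xist, that is without control replicate 1, the value was -0.78 (adjusted p = 0.00245). Without MOF cKO replicate 2 it was -0.69 with an adjusted p of 0.01002, which just missed the threshold.

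Tfb1m and Tfb2m are paralogs that took separate roles, the first in ribosomal RNA methylation and the second in transcription initiation. Tfb1m (chromosome 17, minus strand, 3519256 to 3557781) was at 7.99 and 7.33 CPM in control and at 3.46 and 3.51 CPM in MOF cKO, from 203 to 245 counts against 69 and 83. All the MOF cKO values were below all control values. Of the merged exons of Tfb1m, 3.93% overlap Tiam2 on the opposite strand. The log2FC was -1.13 (SE 0.290, 95% interval -1.81 to -0.45, adjusted p = 0.0192), a larger difference than that of Polrmt with a wider error at its lower counts. With the replicate number as a block in the fit it was called lower, at -1.13 (adjusted p = 0.00479). That block raised the genes called lower from 1338 to 2263 of 13956, and no source used here ties replicate numbers to pairs. Tfb1m was called lower in 4 of 13 alternatives, this one included, with values from -1.44 to -1.07. Tfb2m (chromosome 1, minus strand, 179528055 to 179546267) was at 31.0 and 24.9 CPM in control and at 32.1 and 25.2 CPM in MOF cKO, so its groups overlapped. Its log2FC was 0.03, with a 95% interval from -0.39 to 0.46. Tfb2m starts 103 bp from the start of Cnst on the other strand. The ratio of Tfb1m to Tfb2m counts, which no scaling of the libraries can change, went from 0.258 and 0.294 in control to 0.108 and 0.139 in MOF cKO. The ratio of Polrmt to Tfam counts likewise went from 1.57 and 1.8 in control to 0.916 and 0.924 in MOF cKO. Both ratios use the same counts as the values above and add no separate support. At P0.5 the ratio of Polrmt to Tfam overlapped, with 0.470 and 0.696 in control and 0.471 and 0.512 in Kansl1 cKO. The ratio of Tfb1m to Tfb2m there was 0.176 and 0.283 in control and 0.168 and 0.143 in Kansl1 cKO.

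The bases upstream of the starts of these 3 genes are shown because Polrmt and Tfb1m were the members that stood lower and Tfb2m, the paralog, did not. They come from RefSeq (GRCm38.p6, the same assembly as mm10), run 5′ to 3′ on the minus strand, and end before the first start in RefSeq and GENCODE. Polrmt is chr10:79746582-79746831, Tfb1m is chr17:3557782-3558005 and Tfb2m is chr1:179546277-179546526. Capitals mark exact matches to CCGGAAG, a 7-base form of the site bound by GABP, here called the GABP core. They also mark GCGCATG, a 7-base form of the site of nuclear respiratory factor 1 (NRF1), here called the NRF1 core. Each was searched on both strands, and other forms of these sites were not searched.
Polrmt: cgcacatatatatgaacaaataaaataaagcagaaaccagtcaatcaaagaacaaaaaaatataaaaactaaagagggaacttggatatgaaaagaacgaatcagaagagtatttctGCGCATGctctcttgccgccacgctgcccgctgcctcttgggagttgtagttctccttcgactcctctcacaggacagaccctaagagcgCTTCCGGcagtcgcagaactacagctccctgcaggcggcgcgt
Tfb1m: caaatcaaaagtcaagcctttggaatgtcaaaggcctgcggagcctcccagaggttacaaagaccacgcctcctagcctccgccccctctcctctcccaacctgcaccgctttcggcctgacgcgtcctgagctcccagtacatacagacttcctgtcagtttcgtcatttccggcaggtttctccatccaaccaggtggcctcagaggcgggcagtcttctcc
Tfb2m: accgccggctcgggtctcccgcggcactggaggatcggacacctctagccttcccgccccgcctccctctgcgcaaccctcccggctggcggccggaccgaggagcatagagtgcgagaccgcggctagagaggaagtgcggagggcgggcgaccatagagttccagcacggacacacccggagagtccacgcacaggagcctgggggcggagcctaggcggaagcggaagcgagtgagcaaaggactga
Polrmt held a match to each, the GABP core from 43 bases and the NRF1 core from 133 bases upstream of its start. Tfb1m held neither. Tfb2m held no match upstream of its start and an NRF1 core at base 14 downstream of it. Over the same windows of 250 bases before to 50 after the start, 8 of the 9 members had an entry, and 5 of these held the GABP core (Tfam, Polg, Polg2, Polrmt and Ssbp1) and 3 the NRF1 core (Polrmt, Tfb2m and Lrpprc). Of all 32851 RefSeq promoters, 8.86% held the GABP core and 3.91% the NRF1 core. That background was not limited to genes tested in these libraries, while the members all were tested, so the shares are not of like sets. The 7 matched letters describe the sequence and do not show binding. The GABP core was present in Polrmt, which was called, and in Tfam, Polg, Polg2 and Ssbp1, which were not. The NRF1 core was present in Polrmt as well, and in Tfb2m and Lrpprc, which were not called. The part of either core in these values was not tested.

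Tfam (chromosome 10, minus strand, 71225464 to 71238280) was at 39.8 and 37.4 CPM in control and at 44.0 and 41.5 CPM in MOF cKO. Both MOF cKO libraries were above both controls, but by little. The log2FC was 0.15 (SE 0.123, 95% interval -0.14 to 0.44, adjusted p = 0.372), and that interval leaves out a fall of the size seen for Polrmt.

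Of the replication genes, Polg, the catalytic subunit of the polymerase (chromosome 7, minus strand, 79446231 to 79466362), was at 102.5 and 117.6 CPM in control and at 130.6 and 134.9 CPM in MOF cKO, with a log2FC of 0.27 (SE 0.113, adjusted p = 0.0971). Its groups did not overlap. Of its merged exons, 8.57% overlap Fanci on the opposite strand. Polg2, the accessory subunit (chromosome 11, minus strand, 106768253 to 106779537), was at 14.9 and 33.3 CPM in control and at 29.3 and 40.3 CPM in MOF cKO. The control libraries differed from each other by more than the groups did. Of the merged exons of Polg2, 3.03% overlap Milr1 on the opposite strand. The log2FC was 0.53 (SE 0.349, adjusted p = 0.262). Without control replicate 1, the library with high Xist, the value was 0.06 (adjusted p = 0.871), and without control replicate 2 it was 1.23 (adjusted p = 0.000356). Each MOF cKO library was above the control of the same replicate number. With that number as a block in edgeR's fit Polg2 was called higher, at 0.61 (adjusted p = 0.000769). The block raised the genes called higher from 1395 to 1903 of all 13956 tested. The libraries were made as pairs with littermate controls, but no source used here ties the replicate numbers to the pairs. Ssbp1, the single-strand binding protein (chromosome 6, plus strand, 40471352 to 40484700), was at 26.6 and 29.5 CPM in control and at 30.4 and 28.3 CPM in MOF cKO, and its groups overlapped. Its log2FC was 0.06, with a 95% interval from -0.26 to 0.39.

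The RNA factors differed little. Lrpprc, on chromosome 17, was at 86.0 and 77.3 CPM in control and at 93.7 and 85.2 CPM in MOF cKO, with a log2FC of 0.13 (SE 0.118, adjusted p = 0.413). Mtpap was at 33.2 and 31.0 CPM in control and at 34.4 and 27.1 CPM in MOF cKO, with a log2FC of -0.06 (SE 0.159, adjusted p = 0.779). Both pairs of groups overlapped. Of the merged exons of Mtpap, 18.5% overlap genes on the opposite strand and 3.61% on the same strand. Directions this close to 0 depend on the scaling: with library size alone, Tfam, Polg, Tfb2m, Ssbp1 and Lrpprc turned negative, from -0.03 to -0.27, while the median of all tested genes moved to -0.32. Across all 9 genes, 2 lay below both controls in both MOF cKO libraries and 2 lay above, where 37.7% and 34.9% of all tested genes did so.

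**Figure D2:**
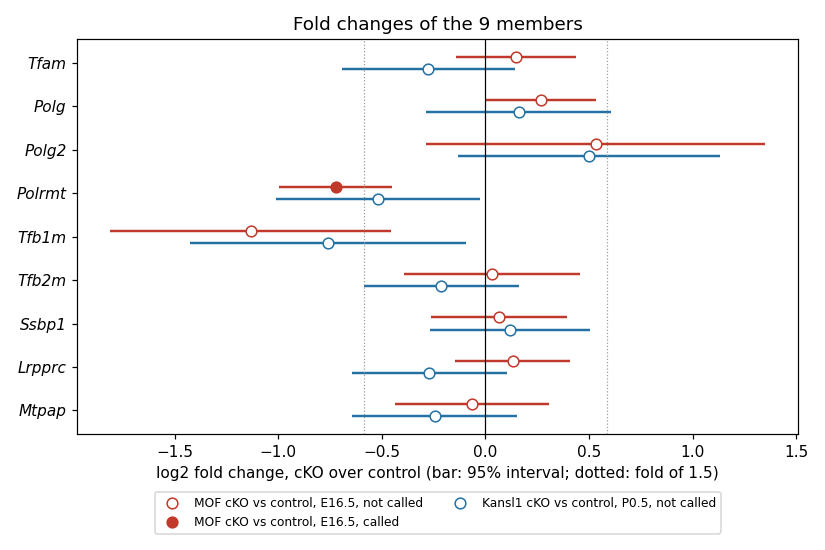
Log2 fold change of cKO over control (x axis) for each member (y axis) in MOF cKO at E16.5 (red) and Kansl1 cKO at P0.5 (blue), with 95% intervals; filled points were called and dotted lines mark a fold of 1.5. Polrmt in MOF cKO, at -0.72, is the filled point, and Polrmt and Tfb1m are the members whose intervals stay below 0 in both experiments.

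The P0.5 libraries asked the same of epidermis that lacked Kansl1. No member was called, and neither was any other gene: 0% of the 13031 tested genes passed edgeR's test. Without adjustment, 2 members had a p under 0.05, Polrmt and Tfb1m, where 15.7% of all tested genes had one, and DESeq2 called 66 genes lower and 35 higher with no member among them. Polrmt was at 19.6 and 26.0 CPM in control and at 16.8 and 15.2 CPM in Kansl1 cKO. The cKO libraries were the lower ones, and the control libraries were far apart. The log2FC was -0.52 (SE 0.208, 95% interval -1.01 to -0.02, adjusted p = 0.307). Tfb1m was at 8.25 and 11.8 CPM in control and at 6.39 and 5.45 CPM in Kansl1 cKO, again without overlap. The log2FC was -0.76 (SE 0.280, 95% interval -1.43 to -0.10, adjusted p = 0.279). Both values were closer to 0 without control replicate 2, the library with low Xist, where Polrmt was at -0.32 (adjusted p = 0.515) and Tfb1m at -0.50 (adjusted p = 0.451). Without control replicate 1, the library with muscle transcripts, they were at -0.70 (adjusted p = 0.305) and -0.98 (adjusted p = 0.293).

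The counts of this experiment were low for some members, with 58 and 85 counts of Polg2 and 72 and 182 counts of Tfb1m in the control libraries. Tfam was at 41.7 and 37.4 CPM in control and at 35.6 and 29.6 CPM in Kansl1 cKO, and Tfb2m was at 46.9 and 41.6 CPM against 38.2 and 38.0 CPM. Neither overlapped between groups, and their log2FC values were -0.27 (95% interval -0.69 to 0.14) and -0.21 (95% interval -0.59 to 0.16). Lrpprc was at 44.1 and 41.8 CPM against 37.3 and 33.8 CPM, and Mtpap was at 25.4 and 27.4 CPM against 21.6 and 23.1 CPM. Their log2FC values were -0.27 and -0.24, with adjusted p of 0.456 and 0.519. These 4 genes thus sat slightly lower in Kansl1 cKO without passing the test.

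On the replication side, Polg was at 34.5 and 44.6 CPM in control and at 47.4 and 41.2 CPM in Kansl1 cKO, with overlapping groups. Polg2 was at 6.65 and 5.495 CPM in control and at 7.80 and 9.33 CPM in Kansl1 cKO, with a log2FC of 0.50 (SE 0.266, adjusted p = 0.411). Ssbp1 was at 27.4 and 29.998 CPM in control and at 31.1 and 31.3 CPM in Kansl1 cKO, with a log2FC of 0.12. In all, 6 of 9 members lay below both controls in both Kansl1 cKO libraries and 2 above, where 22.7% and 26% of all tested genes did so. The members' median log2FC was -0.24, against 0.01 over all tested genes. The melanocyte, macrophage, fibroblast and endothelial marker sums given above separated the same groups, and their part in these values was not tested.

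Whether the 2 deletions acted differently on these genes was tested directly, in a fit over all 8 libraries, as the difference between the MOF and the Kansl1 log2FC values. No member passed in edgeR or DESeq2. DESeq2 called 520 of the 14565 tested genes with a negative difference and 976 with a positive one, and edgeR called 2.92%. In edgeR, the smallest adjusted p among the members was 0.219, for Lrpprc, whose difference was 0.37 (95% interval -0.06 to 0.80). The difference was 0.39 (95% interval -0.09 to 0.87) for Tfam, -0.24 (95% interval -0.78 to 0.31) for Polrmt and -0.40 (95% interval -1.25 to 0.45) for Tfb1m. These intervals are wide enough to hold both equal effects and differences of over 1.5-fold, so these values show neither equal effects nor different ones for these members. Stage, cell isolation and sequencer changed together between the experiments and cannot be told apart from the genotype in this comparison.

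Levels can be compared between genes only per length, as CPM per kilobase of merged exons, scaled over all 8 libraries. In E16.5 control, Polrmt was the highest at 12.8 ± 0.722 (SD, n = 2), followed by Polg at 9.45 ± 0.964, Tfb2m at 9.19 ± 1.37, Lrpprc at 8.85 ± 0.624 and Tfam at 8.01 ± 0.312. Below them came Polg2 at 5.11 ± 2.79, Mtpap at 4.77 ± 0.203, Ssbp1 at 3.09 ± 0.237 and Tfb1m at 1.96 ± 0.110. Polg and Tfb2m, Tfb2m and Lrpprc, and Polg2 and Mtpap were neighbours whose libraries overlapped. In MOF cKO, Polrmt stood at rank 5 with 7.74 ± 0.268 and Polg first with 11.4 ± 0.257, while Tfb1m stayed last at 0.892 ± 0.00867. The libraries of Polrmt overlapped there with those of Polg2 at rank 6 (6.20 and 8.53). At P0.5 the order was another one. Tfb2m led in control at 16.9 ± 1.34, ahead of Tfam at 9.55 ± 0.691 and of Lrpprc and Polrmt, at 5.41 ± 0.181 and 5.22 ± 1.06, whose libraries overlapped. Polg2 was last at 1.49 ± 0.192. In Kansl1 cKO, Tfb2m led again at 14.9 ± 0.114, Polrmt stood at rank 7 with 3.74 ± 0.280, and Tfb1m was last at 1.799 ± 0.211. The libraries of Polrmt overlapped there with those of Mtpap at rank 6 (3.83 and 4.07). Lengths of merged exons include rarely used exons, such as in Ssbp1 with 8360 merged bases, and so can understate a level.

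**Figure D3:**
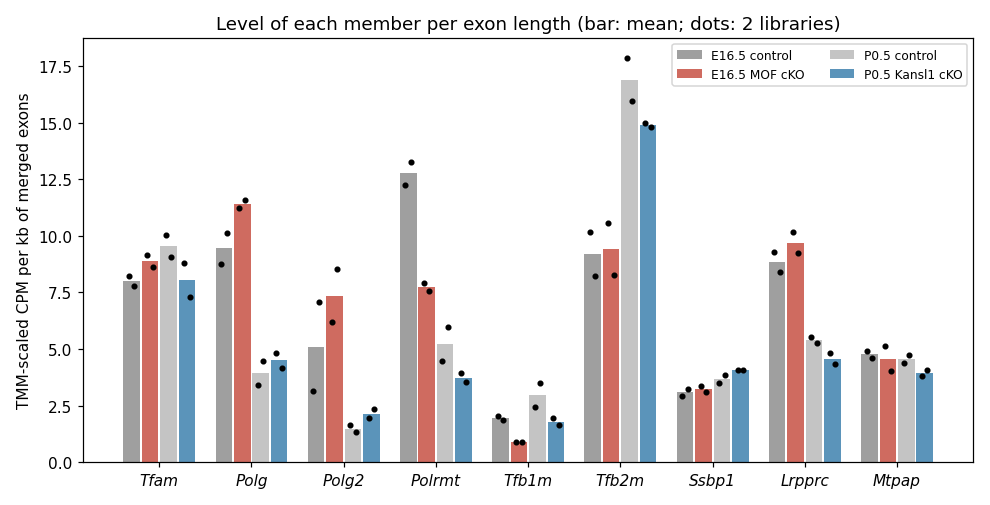
TMM-scaled CPM per kilobase of merged exons, scaled over all 8 libraries (y axis, from 0), for each member (x axis) in the 4 groups; bars are means and dots the 2 libraries. Polrmt is the highest bar in E16.5 control at 12.8 and Tfb2m in P0.5 control at 16.9, and Tfb1m stays below 4 in every library.

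Summed over the 9 genes and scaled over all libraries, the level was 372 and 394 CPM in E16.5 control, 404 and 391 CPM in MOF cKO, 272 and 286 CPM in P0.5 control and 266 and 248 CPM in Kansl1 cKO. The sums of MOF cKO and its control overlapped, and those of Kansl1 cKO lay below both of its controls. Across the 8 libraries, the log2 levels of Tfam correlated with those of the other members between -0.29 and 0.39 (Pearson's r). The 3 genes most like Tfam among the 12528 tested in both experiments were Lox, Dus4l and Ppp1r3d, with r of 0.890, 0.871 and 0.867. These points share stage and library, and the correlations are given as a description only.

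The wider machinery was read from 6 lists with 104 genes in the count tables, which hold no member. In MOF cKO, 10 of 103 tested genes were called lower (9.71%) and 6 higher (5.83%), beside 9.59% and 10% of all tested genes, and their median log2FC was -0.12. The share called lower was thus close to that of all genes, and the medians of the single lists ran from -0.55 to 0.55.

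**Figure D4:**
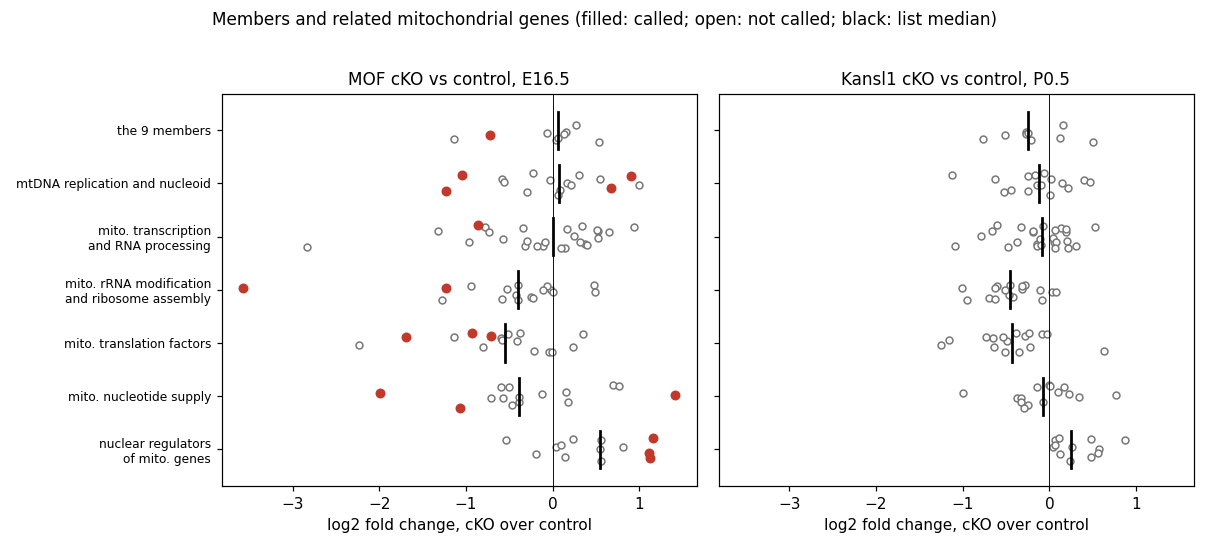
Log2 fold change of cKO over control (x axis) of the members and of the genes in the 6 wider lists (y axis), in MOF cKO (left) and Kansl1 cKO (right); filled points were called, open points were not, and black bars are medians. In MOF cKO the medians run from -0.55 for translation factors to 0.55 for nuclear regulators, and in Kansl1 cKO no point is filled.

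Of 16 genes of mtDNA replication and the nucleoid, 2 fell and 2 rose, with a median of 0.07. Primpol, a primase that restarts stalled replication and is listed as Ccdc111, went from 19.2 and 21.9 CPM to 8.38 and 9.15 CPM, a log2FC of -1.23 (adjusted p = 0.00245). Mpv17, an inner membrane protein needed to maintain mitochondrial DNA, fell from 13.96 and 17.8 CPM to 8.18 and 7.16 CPM, a log2FC of -1.05 (adjusted p = 0.00910). Its call was lost without control replicate 2 (-0.86), MOF cKO replicate 1 (-1.15) or MOF cKO replicate 2 (-0.96). Atad3a, a membrane ATPase bound to nucleoids, rose from 69.8 and 66.8 CPM to 119.2 and 136.7 CPM, a log2FC of 0.91 (adjusted p = 0.00146). Phb, a prohibitin that scaffolds the inner membrane, rose with a log2FC of 0.67 (adjusted p = 0.00510), and lost its call without control replicate 2 (0.54) or MOF cKO replicate 2 (0.63) and with library size alone (0.36). Factors of opposite direction thus stood side by side in this list.

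Of 26 genes of mitochondrial transcription and RNA processing, only Fastkd2 was called. Fastkd2, an RNA-binding protein of the mitochondrial ribosomal RNA, fell from 25.4 and 27.4 CPM to 14.8 and 14.2 CPM (log2FC -0.87, adjusted p = 0.00489), and lost its call without control replicate 2 (-0.81) or MOF cKO replicate 2 (-0.83). The list's median was 0.00. In the list of ribosomal RNA modification and ribosome assembly, 2 of 17 genes fell and the median was -0.40. Mettl15, a methyltransferase of the small-subunit RNA, fell from 115 and 65 counts to 5 and 6, a log2FC of -3.57 (SE 0.637, adjusted p = 0.00490), and without control replicate 1 it was not called (-3.19, adjusted p = 0.0441). Eral1, a GTPase that assembles the small subunit, went from 25.2 and 24.6 CPM to 11.5 and 9.70 CPM, a log2FC of -1.23 (adjusted p = 0.00193). Both act on the same ribosomal subunit whose RNA TFB1M methylates.

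Translation factors had the lowest median of the lists, at -0.55, with 3 of 16 called lower and 14 of 16 below 0, where 7109 of all 13956 tested genes were below 0. Guf1, a GTPase of the elongating ribosome, went from 30.6 and 23.7 CPM to 10.04 and 6.86 CPM, a log2FC of -1.69 (adjusted p = 0.00197). Mtif2, the initiation factor, was at -0.93 (adjusted p = 0.00317) and Gfm2, which recycles ribosomes, at -0.71 (adjusted p = 0.00474). The call of Gfm2 was lost without control replicate 1 (-0.64), MOF cKO replicate 1 (-0.73) or MOF cKO replicate 2 (-0.71). In the nucleotide supply list, 2 of 15 genes fell and 1 rose, with a median of -0.39. Samhd1, which degrades deoxynucleotides, was at -1.07 (adjusted p = 0.00395). Abat, a transaminase that also serves nucleoside salvage, rose by 1.41 (adjusted p = 0.00352).

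The nuclear regulators of mitochondrial genes had the highest median, at 0.55, with 3 of 13 called higher and none lower. Esrra, a nuclear receptor that drives respiratory genes, went from 35.8 and 41.6 CPM to 76.3 and 91.4 CPM, a log2FC of 1.12 (adjusted p = 0.00137). Myc, a growth regulator, was at 1.15 (adjusted p = 0.000867) and Nfe2l2, which controls antioxidant genes, at 1.13 (adjusted p = 0.000763). The levels of the macrophage, keratinocyte and proliferation markers given above moved with these groups as well, and their part in the lists was not tested. Nrf1 and Gabpa encode the factors whose cores were searched for above and are named here after their values were seen. They were not called, with log2FC values of 0.04 (adjusted p = 0.797) and -0.20 (adjusted p = 0.241). Their part in the values of the members was not tested.

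In Kansl1 cKO, 0 of 102 tested genes of these lists were called by edgeR or DESeq2, and 20 (19.6%) had an unadjusted p under 0.05, where 15.7% of all tested genes did. The medians were -0.12 for replication and nucleoid, -0.09 for transcription and RNA processing, -0.46 for ribosomal RNA modification and assembly, -0.43 for translation factors (15 of 16 below 0, where 6334 of all 13031 tested genes were), -0.07 for nucleotide supply and 0.25 for nuclear regulators. Mpv17 had the smallest p of all these genes. It was at 13.7 and 14.3 CPM in control and at 6.20 and 6.64 CPM in Kansl1 cKO, a log2FC of -1.13 (SE 0.218, adjusted p = 0.180). Guf1 was at -0.73 (adjusted p = 0.203) and Fastkd2 at -0.60 (adjusted p = 0.223). None of these values passed the test.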

How the data were processed

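Polyadenylated RNA was measured by paired-end sequencing with a directional kit, on a HiSeq at E16.5 and a NovaSeq at P0.5. The authors deposited unnormalised HTSeq counts of reads per gene on mm10. Their methods name HISAT2 as the aligner and the submitters' processing notes name TopHat2, and the strand setting and annotation of the counting are not given in the sources used here. Entries that name no gene, 21.1% to 26.0% of a library, entered neither library sizes nor tests.

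Groups came from the labels. In R 4.3.3, low counts were removed by filterByExpr and TMM factors corrected the library sizes before the quasi-likelihood test of edgeR 4.0.16 on all genes, with Benjamini-Hochberg adjustment, each experiment alone (2 comparisons). The difference of the effects used a fit over 8 libraries with 4 group means. DESeq2 1.42.0, the tool of the methods, was an alternative, beside other scalings, filters and thresholds, the replicate number as a block and leaving out each library. Scripts were tested on simulated data. Each experiment was made as pairs of samples with littermate controls, and no source used here ties replicate numbers to pairs or says that the libraries of a group came from separate litters. The 2 libraries per group limit the precision: p-values measure only the spread between them.

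The members and the lists were chosen with earlier results of these data known. Named were all members, every gene of the wider lists called in either experiment, the 3 genes most like Tfam and the targeted genes. Of these, 1 called gene is not reported here. GENCODE M21 gave coordinates and merged exon lengths, and RefSeq the promoters. Mterf1b and Perm1 had no row in the count tables, and Tymp was not tested.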

Additional observations from a re-analysis of the deposited data

Results flagged for a closer look

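Among the members and the wider lists, 1 gene differed between the MOF and the Kansl1 effect by the test of the difference itself. That was 0 of 9 members and 1 of 103 tested genes of the lists (0.971%), where 2.92% of all 14565 tested genes were called. Atad3a, the membrane ATPase bound to nucleoids, had a log2 fold change of 0.91 in MOF cKO and -0.24 in Kansl1 cKO. The difference was 1.12 on the log2 scale (SE 0.189, 95% interval 0.69 to 1.54, adjusted p = 0.00860 in edgeR's fit over 8 libraries). Atad3a was higher in both MOF cKO libraries than in both controls, and lower in both Kansl1 cKO libraries than in both controls. The call was lost, with the direction kept, in 10 of 16 alternatives: with each library left out in turn (adjusted p from 0.0112 to 0.0339), with library size alone and with the replicate block. Stage, isolation and sequencer cannot be told apart from the genotype here.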

How the results depend on the processing

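In MOF cKO, 1 member was called, and 2 were with library size alone, with all genes of at least 1 count and at an adjusted p of 0.05, in each case Polrmt and Tfb1m. With the replicate number as a block there were 3 (Polrmt, Tfb1m and Polg2), and leaving out a library gave 0 to 2. Genes called in the wider lists numbered 16, and 29 with library size alone, 27 with every gene of at least 1 count, 27 with the block and 30 at an adjusted p of 0.05, against 14 to 18 with a library left out. DESeq2 gave 23. Calls over all genes went from 1338 lower and 1395 higher to 2743 and 769 with library size alone. They were 2263 and 1903 with the block, and 2197 and 1837 with all genes of at least 1 count. At an adjusted p of 0.05 they were 2296 and 1943, and with DESeq2 1725 and 1816. Over all genes of the Kansl1 experiment, DESeq2 called 66 lower and 35 higher, and edgeR 117 and 73 with all genes of at least 1 count. In Kansl1 cKO, 0 members and 0 genes of the lists were called under every alternative, the block included, and 0 members differed between the effects.

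The study's methods describe the libraries of each experiment as pairs, with littermates as controls, and do not say whether the replicate number marks the pair. Deviations from the group means correlated at 0.21 in the MOF and -0.20 in the Kansl1 experiment. These values, of opposite sign, do not settle whether the numbers mark the pairs. The fit without the block was the main one in both experiments, and the block was an alternative. With the numbers of Kansl1 cKO crossed, an alternative chosen after seeing the data, the block gave 1 call over all genes in place of 0.

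The direction turned only in values that passed no test in any of the alternatives named in this paragraph, and the cause was not tested. In MOF cKO, upper-quartile factors gave log2 fold changes of -0.033 for Tfb2m and -0.0019 for Ssbp1. Library size alone, which moved the median of all genes from -0.02 to -0.32, gave -0.16 for Tfam, -0.034 for Polg, -0.27 for Tfb2m, -0.24 for Ssbp1 and -0.17 for Lrpprc. With a library left out, Tfb2m ran from -0.16 to 0.20, Ssbp1 from -0.0100 to 0.14 and Mtpap from -0.25 to 0.099. In Kansl1 cKO, Polg ran from -0.0088 to 0.33 and Myc from -0.077 to 0.16. For the difference of the effects, Polg2 was at 0.099 with DESeq2, 0.097 with RLE factors, 0.021 with upper-quartile factors, 0.13 with every gene of at least 1 count, 0.0046 with a minimum of 1 CPM in 2 libraries and 0.089 with the block. Ssbp1 was at 0.014 with DESeq2, 0.013 with RLE factors and 0.040 with all genes of at least 1 count. Library size alone gave -0.14 for Polg, -0.014 for Tfb2m and -0.068 for Mtpap. With a library left out, the difference ran from -0.14 to 0.32 for Polg, -0.48 to 0.84 for Polg2, -0.17 to 0.13 for Ssbp1 and -0.034 to 0.45 for Mtpap.

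A group left with 1 library was assumed to vary like the others. At 69 to 245 counts in the E16.5 libraries, the interval of Tfb1m spans over 1 log2 unit, which limits what its values can show.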
